A study of Caenorhabditis elegans with 2 samples.

Results

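The regions described here are those whose summit, the point of highest signal, fell inside a messenger RNA exon of an autosomal protein-coding gene and away from every transcription start site. They came from chromatin immunoprecipitation sequencing (ChIP-seq) of whole Caenorhabditis elegans L1 larvae, the first larval stage, of the strain OP321. That strain has the genotype unc-119(tm4063) III; wgIs321, where the insertion wgIs321 carries tlp-1 fused to eGFP, and the larvae were of mixed sex. The libraries are 2 biological replicates of this single genotype, so no condition is compared. The control was not used here. Both replicates carry the same unc-119 mutation and the same insertion, and signal from whole animals cannot be assigned to a cell type. Summits were taken from the deposited list for both replicates pooled on the ce11 build, and exons from Ensembl release 115. The label of that list reads peaks and background, so a region in it is not by itself a called binding site. A summit from 500 bp upstream to 200 bp downstream of any protein-coding transcription start site, the TSS window, was not counted. This gave 778 regions of the 9178 on autosomes and of the 11633 in all, namely 454 in coding exons, 33 in 5' UTRs and 291 in 3' UTRs. Every one of the 778 was 320 bp wide. They touched 744 genes, 4.32% of the 17242 autosomal protein-coding genes, and neither tlp-1 nor unc-119 was among them.

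The product of tlp-1 is a C2H2 zinc finger protein known for its part in the polarity of the T cell of the tail epidermis and in the form of the male tail tip. Transcription factors are usually mapped at promoters, in introns and between genes. Exons are also open to binding, but their sequence is constrained by the protein or by the control of the messenger, and the DNA of coding exons is richer in G and C than the rest of a nematode chromosome. GATA sites are short words read by GATA-type zinc finger factors, which in C. elegans act in the intestine and the epidermis among other tissues.

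Sequences at the summits of some of the strongest of these regions are shown first, because the results below turn on the GATA words in them. A GATA site was counted as the word TGATAA, the variant with a first A (AGATAA), the variant with a last G (TGATAG) or the one with both (AGATAG), on either strand and wholly within 50 bp of the summit. The 7 sequences below are those of the regions in the authors' thresholded list that hold a site and lie on chromosomes II, IV and V, while those of C35E7.9 and R10A10.1, which also hold one, are not shown here. Each is 30 bases of the ce11 reference, read 5' to 3' on the strand that carries the GATA word, with the site in capitals.
lys-2 3' UTR, chrV:10280302-10280331, plus strand: aaTGATAAcagaTGATAAcaattttatttg
clec-140 5' UTR, chrII:4674378-4674407, minus strand: gtacggaagaacTGATAAcataagttcggc
tag-290 3' UTR, chrV:11614705-11614734, minus strand: atacaattgaatTGATAAcTGATAAtggtg
srw-14 coding exon, chrV:15226376-15226405, minus strand: gggaaaagtcacTGATAAcagtcTGATAAc
cgt-1 coding exon, chrV:15888076-15888105, minus strand: tgtcctaatcagTGATAGtgcgatttttat
unc-62 5' UTR, chrV:4505519-4505548, minus strand: gattaatattcgAGATAAgcctgcaccctt
clec-51 and faah-1 3' UTRs, chrIV:8161997-8162026, plus strand: tcagaaccctggTGATAAaaacaatattaa
In lys-2, tag-290 and srw-14 the run holds 2 sites. The 3 regions next below the threshold are shown for comparison.
F59B1.2 and srx-41 3' UTRs, chrV:3634629-3634658, minus strand: aatcgattgtatTGATAAaacaaaacgtga
cyd-1 5' UTR, chrII:12982114-12982143, plus strand: catcatttccagAGATAAccatcaccatca
cyp-33D1 coding exon, chrV:16175437-16175466, plus strand: cttcataggaagTGATAAaaatgaatggtc

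Regions were sparse in coding exons and about as dense in UTRs as in noncoding sequence. Outside TSS windows, coding exons made up 17.8 Mb, 21.6% of the autosomes, and held 25.5 regions per Mb. The 5' UTRs held 111 regions per Mb over 0.298 Mb and the 3' UTRs 134 per Mb over 2.18 Mb. For comparison, introns held 125 per Mb, intergenic sequence 150 per Mb and TSS windows 145 per Mb. The same order of coding exons and 3' UTRs was seen in each replicate's own list. Replicate 1 had 117 regions per Mb in coding exons, 347 in 3' UTRs and 314 in introns, and replicate 2 had 99.4, 279 and 263. The lists of single replicates were longer and held more exonic summits, 2926 of 22626 autosomal regions in replicate 1 (12.9%) and 2440 of 19237 in replicate 2 (12.7%), against 8.48% of the pooled list (exact 95% interval 7.92 to 9.07). Mean GC content in the 101 bp around the summit was 37.5% in coding exon regions, 29.7% in 5' UTR regions and 27.4% in 3' UTR regions. Consecutive 101 bp windows were laid along the autosomes and classed by their midpoint, whether or not they held a region. Those in all coding exons outside TSS windows averaged 41.2% and those in the 3' UTRs 31.3%. How far GC content, mappability or gene expression move with these densities was not tested.

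**Figure D1:**
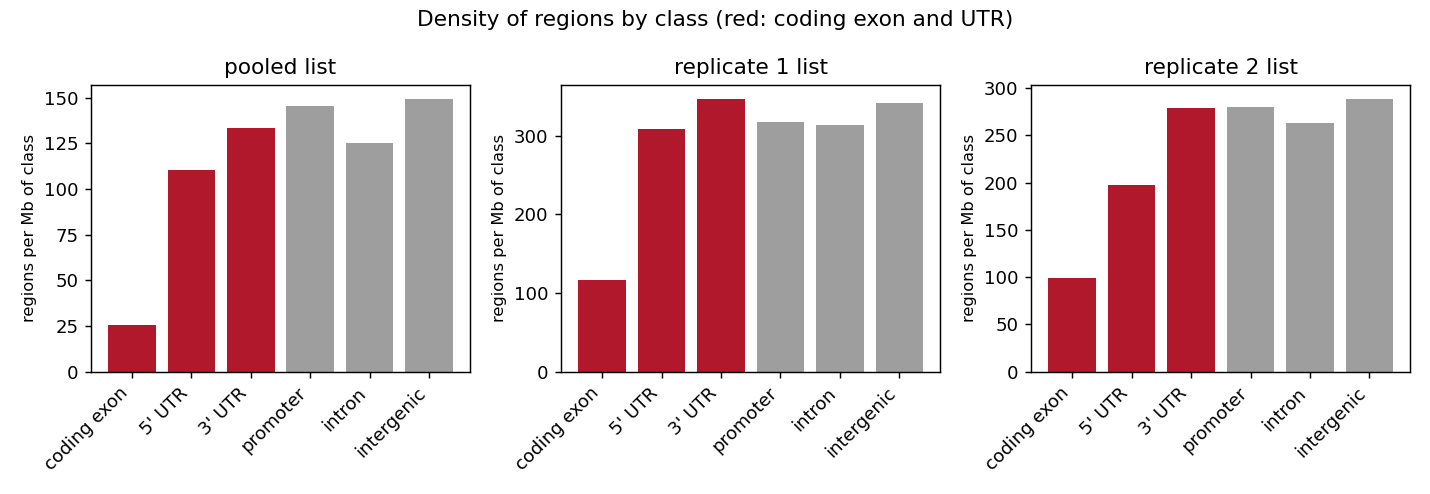
Regions per Mb of autosomal sequence of each class (vertical axes) in the pooled list and in the list of each replicate; red bars are coding exon, 5' UTR and 3' UTR summits outside TSS windows and grey bars are promoter, intron and intergenic summits. Coding exons have the shortest bar in all 3 panels, at 25.5 per Mb in the pooled list, while 3' UTRs stand at 134 per Mb beside introns at 125.

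The signal of exonic regions was mostly close to the lower end of the list. Signal is the authors' own value per region, without a stated scale, and is compared only within a list. The median was 15.6 over the 778 exonic regions, with quartiles of 14.3 and 17.9 and a range of 13.5 to 64.2. Regions in 5' UTRs had a median of 19.1 (rank 3227), those in 3' UTRs 15.7 (rank 6964) and those in coding exons 15.4 (rank 7530). Promoter regions had a median of 17.05 (rank 5092), intergenic regions 16.7 (rank 5504) and intronic regions 16.1 (rank 6317). The 5' UTR median, over 33 regions, was the highest of the exonic classes, and the difference was not tested.

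**Figure D2:**
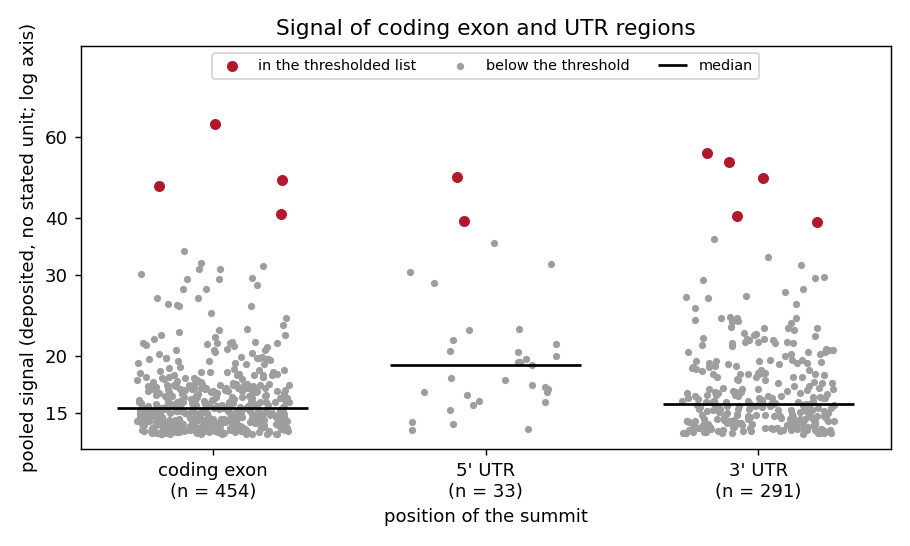
Pooled signal on a log axis for each of the 778 regions, by the position of the summit; red points are in the thresholded list, grey points are below it, and black lines are medians. All 11 red points lie above 39, and the highest, in a coding exon, is at 64.2.

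The authors' thresholded list, which holds exactly the 328 regions of highest pooled signal, took in fewer of the exonic regions than of the others. Its label names the irreproducible discovery rate (IDR), a filter on reproducibility between replicates, without the cutoff. The list held 11 of 778 exonic regions (1.41%, exact 95% interval 0.708 to 2.52) and 241 of the other 8400 autosomal regions (2.87%, 2.52 to 3.25), where the share over all 9178 was 2.75%. The odds ratio was 0.486 (two-sided Fisher's exact test, adjusted over 7 tests, exact p = 0.0361). By class, the thresholded list took in 4 of 454 coding exon regions (0.881%), 2 of 33 in 5' UTRs (6.06%, 0.743 to 20.2) and 5 of 291 in 3' UTRs (1.72%). It took in 108 of 2041 promoter regions (5.29%), 83 of 3003 intergenic regions (2.76%) and 45 of 3113 intronic regions (1.45%). Set against the intronic regions alone, the exonic regions had an odds ratio of 0.978 (adjusted exact p = 1), so the lower share does not hold against introns. The call was also lost with a TSS window of 1000 bp upstream to 500 bp downstream (odds ratio 0.540, adjusted exact p = 0.156) and with the first 100 regions as the threshold (0.168, adjusted exact p = 0.146). Regions in 3' UTRs had an odds ratio of 1.97 against those in coding exons (Fisher's exact test, adjusted p = 0.377), a difference not detectable with 9 thresholded regions. Regions are not replicates, so these p-values cover counting error over regions and not the variation between animals.

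Among the 11 thresholded regions, 3 had a host gene for a lysozyme or a C-type lectin, families known for roles in gut function and defence. Of all autosomal C-type lectin genes 1.69% held an exonic region, and of gut protease and lysozyme genes 5.085%. The share of all autosomal protein-coding genes was 4.32%, and no family was tested. Lys-2, a lysozyme gene, had a 3' UTR region at chrV:10280158-10280477 with a pooled signal of 55.4, rank 117. Its signal was 22.1 in replicate 1 (rank 130) and 32.3 in replicate 2 (rank 159), so it was high in both. The summit lay 11 bp inside the end of the gene, and 53.4% of the region was exonic. Clec-140, which encodes a protein with a C-type lectin domain, had a 5' UTR region at chrII:4674245-4674564 with a pooled signal of 49.1, rank 176. Replicate 1 gave 19.3 (rank 196) and replicate 2 gave 29.3 (rank 217), and the whole region was exonic, 1345 bp after the start of the gene. Clec-51, of the same lectin family, and faah-1, which encodes a fatty acid amide hydrolase, have 3' UTRs that overlap on opposite strands. The region there, at chrIV:8161828-8162147, had a pooled signal of 39.2, rank 301, with 12.4 in replicate 1 (rank 1106) and 25.8 in replicate 2 (rank 319). Which of these genes the region belongs to cannot be told apart from its position.

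Membrane protein and lipid genes accounted for another 3. Srw-14, a chemoreceptor gene of the srw class, had a region wholly inside its exon 1 at chrV:15226226-15226545, 436 bp after the start of the gene. Its pooled signal was 48.5, rank 181, from 15.8 in replicate 1 (rank 390) and 34.5 in replicate 2 (rank 121). Cgt-1, which encodes a ceramide glucosyltransferase of glycosphingolipid synthesis, had a region in coding exon 4 at chrV:15887941-15888260 with a pooled signal of 40.9, rank 272. It stood at 15.8 in replicate 1 (rank 387) and 20.1 in replicate 2 (rank 755). Ptr-12, a patched-related gene, had a 3' UTR region at chrI:2587494-2587813 with a pooled signal of 40.4, rank 281. That region ranked 98 in replicate 2 with 37.4 but only 5412 in replicate 1 with 8.35, so it was high in replicate 2 alone.

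The transcription factor among the hosts was unc-62, a Meis-class homeodomain gene whose product is a Hox cofactor. Its thresholded region, at chrV:4505392-4505711 in a 5' UTR, 792 bp after the nearest start, had a signal of 39.3, rank 300. It ranked 485 in replicate 1 and 475 in replicate 2. The summit lies in exon 7 of the transcript T28F12.2c.1. Because 5' UTR came before 3' UTR where transcripts differ, its class may depend on the transcript. A second 5' UTR region of unc-62, at chrV:4509263-4509582, had a signal of 22.8 (rank 1593) and ranked 20890 in replicate 1 against 857 in replicate 2. The best region in a TSS window of unc-62 was far weaker than both, at rank 10080.

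The remaining 4 thresholded regions lay in genes named by sequence or tag alone. C35E7.9 had the highest signal of all 778, 64.2 at rank 77, in coding exon 2 at chrI:10807383-10807702, with ranks of 112 in replicate 1 and 71 in replicate 2. F46A8.11 had a 3' UTR region at chrI:11249818-11250137 with a signal of 52.9 (rank 135), which ranked 145 and 458 in replicates 1 and 2. Tag-290 had a 3' UTR region at chrV:11614585-11614904 with a signal of 48.8 (rank 178), which ranked 66 and 439. All of these were high in both replicates. R10A10.1, a gene of 276 bp, had a region at chrI:6418672-6418991 with a signal of 46.9 (rank 198), which ranked 191 and 196. Its summit lay 8 bp from the end of the gene and 52.8% of the region was exonic, and this was the only one of the 11 regions whose edge reached a TSS window. Of the 11, unc-62 and clec-51 with faah-1 had a host gene with a further pooled region in a TSS window, that is 2 of 11 beside 18.9% of all 778.

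No exonic region fell between rank 301 and rank 397, so the members nearest the threshold were well separated. Just below it were the region of F59B1.2 and srx-41 (signal 36.0, rank 397), the 5' UTR region of the cyclin D gene cyd-1 (35.3, rank 416) and the coding exon region of cyp-33D1, a cytochrome P450 gene (33.9, rank 466). Cyd-1 ranked 187 in replicate 1 and 2245 in replicate 2, while cyp-33D1 ranked 13158 in replicate 1 and 294 in replicate 2. Several of the regions named here had a wide gap between replicates, and how often other autosomal regions of these ranks had one was not counted. Y51F10.7 (32.8, 3' UTR) ranked 27832 in replicate 1 and 339 in replicate 2. The UDP-glucuronosyltransferase gene ugt-47 (31.9, coding exon) and the F-box gene fbxa-86 (30.9, coding exon) were overlapped in replicate 2 alone, at ranks 198 and 424. The cyclin-dependent kinase gene cdk-2 (31.6, 3' UTR) leaned the other way, with rank 359 in replicate 1 and 1646 in replicate 2. Scav-6, which encodes a scavenger receptor-related protein (30.9, coding exon), ranked 1307 and 1617, and fbxa-14 (30.5, 5' UTR) ranked 693 and 1375.

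Exonic regions were found again in both replicates less often than the other autosomal regions. Of the 778, 349 were overlapped by at least 1 bp by a region of each replicate (44.9%, exact 95% interval 41.3 to 48.4), against 4567 of the other 8400 (54.4%, 53.3 to 55.4). The odds ratio was 0.683 (two-sided Fisher's exact test, adjusted p = 3.16e-06). Replicate 1 recovered 482 of the exonic regions (61.95%) and 71.4% of the others, and replicate 2 recovered 618 (79.4%) and 81.5%. The share in neither list was 3.47% for exonic and 1.52% for the other regions. Coding exon regions were recovered in both replicates in 41.4%, 3' UTR regions in 48.1% and 5' UTR regions in 63.6%, beside 50.8% of intronic and 56.5% of promoter regions. Because pooled regions were made from both replicates, these shares describe how evenly a region was supported and are not an independent check.

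The shares overlapped in both replicates moved with rank, and exonic regions rank lower. Up to rank 328 all 11 exonic regions and 97.9% of the others were found in both replicates. Those ranks are the thresholded list, filtered on reproducibility between replicates, so a high share there was favoured by the selection. From rank 329 to 1000 the shares were 93.1% and 93.0%. From rank 2001 to 5000 they were 65.6% and 65.8%. They parted from rank 5001 to 10000, at 35.8% for 400 exonic regions (31.1 to 40.7) and 42.3% for 3575 others (40.7 to 43.9), and stood at 23.2% and 27.9% after rank 10000. The difference within bins was not tested.

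**Figure D3:**
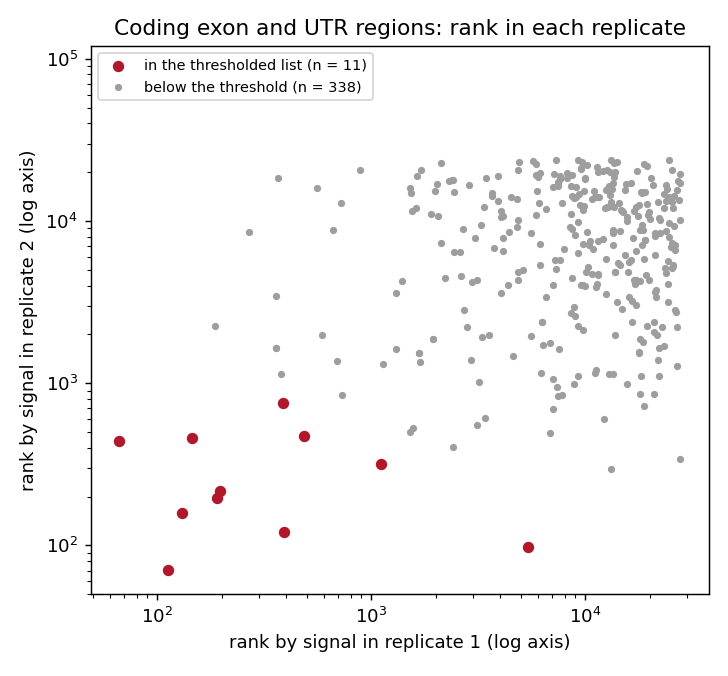
Rank by signal in replicate 1 (horizontal) and replicate 2 (vertical) of the 349 exonic regions overlapped in both lists, on log axes; red points are in the thresholded list and grey points are below it. The red point far to the right, at rank 5412 in replicate 1 and rank 98 in replicate 2, is ptr-12.

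GATA sites lay at fewer exonic summits than other autosomal summits, by a margin that did not pass the test. A site lay within 50 bp in 225 of 778 exonic regions (28.9%, exact 95% interval 25.8 to 32.3) and in 2700 of 8400 others (32.1%, 31.1 to 33.2), an odds ratio of 0.859 (Fisher's exact test, adjusted p = 0.123). In the list of either replicate alone the lower share did pass, with odds ratios of 0.843 without replicate 1 (adjusted exact p = 0.00139) and 0.847 without replicate 2 (adjusted exact p = 0.00162). Against intronic regions alone, where 26.02% held a site, the odds ratio was 1.16 (adjusted exact p = 0.240). Promoter regions held a site in 41.25% and intergenic regions in 32.23%, and neither class was tested alone against the exonic regions. The shares were 28.6% in coding exons, 39.4% in 5' UTRs (22.9 to 57.9) and 28.2% in 3' UTRs, and 3' UTR and coding exon regions had an odds ratio of 0.978 (Fisher's exact test, adjusted p = 0.934). Without replicate 1 that odds ratio was 1.36 and did pass (adjusted exact p = 0.00622), and without replicate 2 it was 1.11 and did not (adjusted exact p = 0.305). Of windows of the same length over all autosomal coding exons and UTRs outside TSS windows, 19.7% held a site. Of those over the other autosomal sequence 19.5% did.

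The site went with high signal inside exons as it did outside them. Of the 11 thresholded exonic regions 9 held a site (81.8%, exact 95% interval 48.2 to 97.7), and of the 767 below the threshold 216 did (28.2%, 25 to 31.5). The odds ratio was 11.5 (Fisher's exact test, adjusted p = 0.00136), 33.5 without replicate 1 and 4.62 without replicate 2. With a replicate left out, the thresholded regions were the first 328 of the other replicate's own list, not the authors' thresholded list. Among all the other thresholded autosomal regions 219 of 241 held a site (90.9%, 86.5 to 94.2), an odds ratio of 0.452 for the exonic ones (adjusted exact p = 0.377). The direction of that last comparison turned without replicate 1 (odds ratio 1.29), and it passed without replicate 2, with 9 of 16 exonic and 193 of 239 other regions (odds ratio 0.306, adjusted exact p = 0.0392). The 2 thresholded exonic regions without a site within 50 bp were those of F46A8.11 and ptr-12, and within 100 bp all 11 held one. From rank 329 to 1000 the shares were 62.1% for 29 exonic regions and 68.6% for 513 others. They were 42.9% and 43.7% from rank 1001 to 2000, 25.3% and 30.6% from rank 2001 to 5000, 27.3% and 24.95% from rank 5001 to 10000, and 22.5% and 21.99% thereafter. The whole-series trend of this site with signal was known before the exonic regions were set apart, so its presence here is a description of how closely they follow it.

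**Figure D4:**
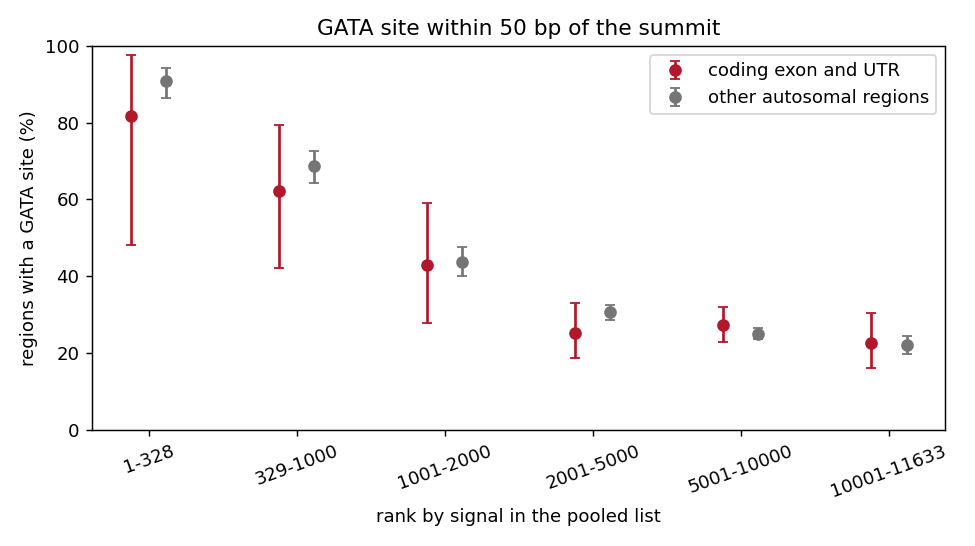
Share of regions with a GATA site within 50 bp of the summit (vertical, percent) by rank in the pooled list (horizontal); red points are exonic regions, grey points the other autosomal regions, and bars are exact 95% intervals. Both series fall along the ranks, with 81.8% and 90.9% in the first bin and 22.5% and 21.99% in the last.

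Up to rank 1000 the sites were centred on the summits. In the 40 exonic regions up to rank 1000, GATA sites reached 20 per kb in the 20 bp before the summit and 15 per kb in the 20 bp after it. The 754 other autosomal regions of those ranks had 15.7 and 16.7 per kb in the same bins. In the 738 exonic regions of lower rank the values were 3.66 and 3.39 per kb. The bin 280 to 300 bp before the summit held 2.24 per kb, and that 280 to 300 bp after it 3.46. The other bins more than 200 bp away were lower than at the summit, from 1.83 to 2.51 per kb. The highest bin was 20 to 40 bp after the summit, at 3.997 per kb, but that 160 to 180 bp after it reached 3.59. The rise at the summit was thus modest and was not tested. The nearest site lay 2 bp from the summit in lys-2, 4 bp in srw-14, 6 bp in R10A10.1 and 10 bp in both C35E7.9 and cgt-1. It lay 12 bp away in clec-140, 18 bp in unc-62, 24 bp in clec-51 and 26 bp in tag-290.

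**Figure D5:**
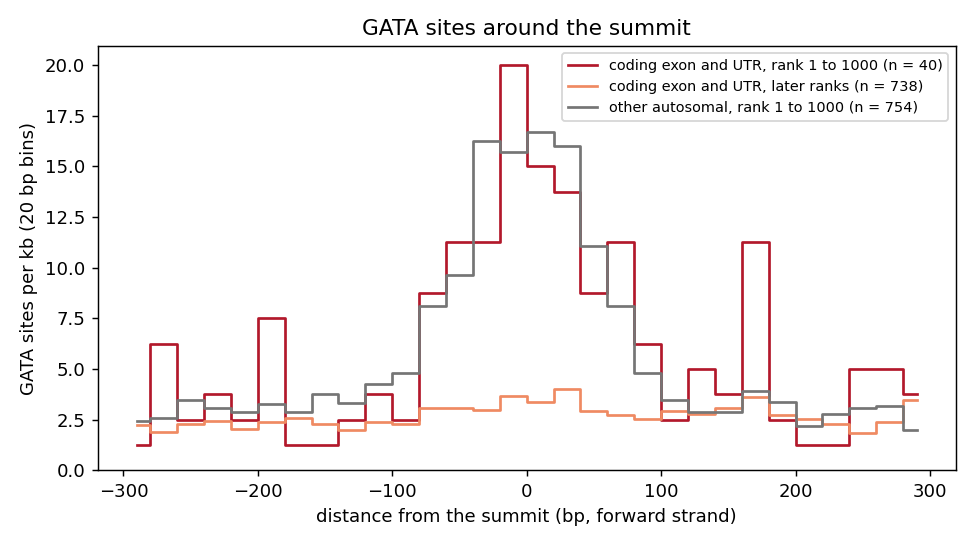
GATA sites per kb (vertical) in 20 bp bins by distance from the summit on the forward strand (horizontal), for exonic regions up to rank 1000 (red), exonic regions of later rank (orange) and other autosomal regions up to rank 1000 (grey). The red and grey lines peak at the summit, at 20 and 16.7 per kb. The orange line runs from 1.83 to 3.997 per kb and is highest 20 to 40 bp after the summit.

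The bases that followed the site were counted in the thresholded regions. The word TGATAAG, on either strand, was in 1 of the 11 exonic regions (9.09%, exact 95% interval 0.230 to 41.3), that of clec-51 and faah-1, and in 146 of the 241 others (60.6%, 54.1 to 66.8). In promoters it was in 75 of 108 (69.4%). TGATAAC was in 4 of the 11 (36.4%, 10.9 to 69.2), namely lys-2, clec-140, tag-290 and srw-14, whose sequences are printed above with the following c in lower case, and in 56 of the 241 (23.2%). AGATAAG was in C35E7.9 and unc-62, and cgt-1 had TGATAG alone. In the first 328 regions of each replicate, TGATAAG was in 1 of 16 exonic and 108 of 239 other autosomal regions (6.25% and 45.2%) in replicate 1, and in 3 of 11 and 126 of 237 (27.3% and 53.2%) in replicate 2. From rank 329 to 1000 of the pooled list the order was the other way, with 11 of 29 exonic regions (37.9%, 20.7 to 57.7) and 167 of 513 others (32.6%, 28.5 to 36.8). TGATAAG was in 1.89% of windows over all coding exons and UTRs outside TSS windows and in 1.66% of those over the other sequence. This comparison was chosen after the word counts were seen, was not tested, and rests on 11 regions.

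Other words were counted in the same windows, on either strand. The polyadenylation and splice acceptor-like words were thus counted without regard to the strand of the gene. The polyadenylation signal AATAAA was in 46.05% of 3' UTR regions and in 41.1% of windows over all 3' UTRs outside TSS windows. It was in 22.03% of coding exon regions and 11.03% of windows over coding exons. Over all exonic regions it was in 31.0%, beside 14.4% of windows over all coding exons and UTRs and 32.6% of the other autosomal regions. The splice acceptor-like word TTTTCAG was in 11.95% of exonic and 11.8% of other regions. It was in 9.06% of windows over all coding exons and UTRs and 11.96% of those over other sequence. The E-box CACGTG was in 1.54% and 1.36%, the T-box element TCACACC in 0.514% and 0.714%, the TCF element in 5.66% and 5.93%, and the GAGA element in 6.17% and 4.80%. These shares are descriptions without a test.

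Distances from gene starts and ends are given as a description, since the rule fixes much of them. The nearest protein-coding start was a median of 1190 bp away, 1052 bp for coding exon, 672 bp for 5' UTR and 1538 bp for 3' UTR regions. Of 3' UTR summits, 116 of 291 lay within 100 bp of the end of the gene, with a median of 140 bp. Of them, 101 (34.7%) lay upstream of the nearest start, 52 of these by 501 to 1000 bp, against 75 (16.5%) and 29 of the coding exon summits. Most regions also held other sequence. The median share of a region's 320 bp that was exonic was 70.3% for coding exon, 100% for 5' UTR and 97.2% for 3' UTR regions, and 210 of the 778 were wholly exonic. The edge of 87 regions reached into a TSS window. At the edges of the rule, the summits of fbxa-209 and stdh-3 lay 501 and 507 bp upstream of the starts of Y36E3A.2 and stdh-1. Those of pad-2 and srbc-24 lay 201 and 206 bp after their own starts. Summits of 2 further regions 499 bp upstream of dld-1 and Y57G11C.52, and of 2 lying 199 bp after the starts of mek-5 and H10E21.1, stood just outside the rule.

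The median length of the host over the 778 regions was 3365 bp, against 1964 bp over all 17242 autosomal protein-coding genes. Of the regions, 147 (18.9%) had a host gene with a further pooled region in its own TSS window. Counted over genes, 12.2% of all autosomal protein-coding genes had a pooled region there. These shares count different units, and their difference was not tested. Host genes with 2 or more exonic regions numbered 37, and 5 had 3 or more. They were the neuropeptide receptor gene npr-39 with 4, and F57A8.7, the zinc finger gene blmp-1, rsbp-1 and the tomosyn gene tom-1 with 3 each. The 3 regions of blmp-1 had signals up to 16.8 and those of tom-1 up to 26.8, below the threshold.

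Gene families were described by how many of their genes held an exonic region, where 4.32% of all autosomal protein-coding genes did and all their exons together held 38.03 exonic regions per Mb outside TSS windows. Nuclear hormone receptors, ligand-regulated transcription factors, had 24 of 246 genes (9.76%) and 83.5 regions per Mb, with 14 in coding exons, 5 in 5' UTRs and 5 in 3' UTRs. None of the 24 was thresholded, and 11 held a GATA site. The strongest were nhr-247 (5' UTR, signal 31.7, rank 553 in the pooled list and in replicate 2, 3129 in replicate 1), nhr-192 (coding exon, 26.8, ranks 12204 and 604) and nhr-36 (3' UTR, 24.1, ranks 6196 and 1156). All 3 stood higher in replicate 2. Nhr-192, nhr-12 and nhr-205 lie together within a dense run of pooled regions on chromosome V. Chemoreceptors, the 7-transmembrane receptors of sensory neurons, had 49 of 1276 genes (3.84%) and 45.9 regions per Mb, 41 of them in coding exons. Srw-14 was the thresholded one, followed by srx-41 with F59B1.2 and by srab-12 (3' UTR, 26.8, ranks 1512 and 501). F-box genes, whose products are substrate receptors of ubiquitin ligases, had 10 of 395 (2.53%), none thresholded, of which 6 held a GATA site. C-type lectin genes had 4 of 237 (1.69%), 2 of them thresholded, namely clec-140 and clec-51.

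Digestive proteins of the gut had 3 of 59 genes (5.09%). These were lys-2 and, below the threshold, the saposin-like gene spp-11 (coding exon, 19.5) and the aspartyl protease gene asp-13 (coding exon, 18.4). Lipid genes had 2 of 52, with the omega-3 desaturase gene fat-1 (3' UTR, 21.4, overlapped in replicate 2 alone at rank 612) and the acetyl-CoA carboxylase gene pod-2 (3' UTR, 16.3). Pan-neuronal genes had 2 of 16, the synaptic vesicle GTPase gene rab-3 (3' UTR, 17.4) and the synaptotagmin gene snt-1 (coding exon, 14.4). Homeobox genes had 1 of 64, unc-62. Families known for high expression in growing larvae follow. Ribosomal proteins had 1 of 79, rps-4 (coding exon, 16.7), and actins and tubulins had 1 of 16, tba-5 (3' UTR, 15.8). The name classes of cuticle collagens and body shape genes had 3 of 164, of which col-110 (3' UTR, 14.8) encodes a collagen. The other 2 do not, since bli-4 (3' UTR, 14.4) encodes a proprotein convertase and dpy-27 (3' UTR, 13.7) a subunit of the dosage compensation condensin. No exonic region lay in the 33 translation factor, 77 histone, 47 heat shock, 14 body wall muscle, 3 intermediate filament, 1 vitellogenin, 8 GATA factor, 22 Wnt and T blast cell, 34 germline or 55 sperm protein genes. Their exons outside TSS windows ran from 0.00494 Mb in the vitellogenin gene to 0.133 Mb in the body wall muscle genes, and no family was tested.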

How the data were processed

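ChIP-seq was done on 2 biological replicates, per the labels. The deposited files are region lists on ce11, with 11633 regions for both replicates pooled, 28183 for replicate 1, 23975 for replicate 2 and 328 in the thresholded list. Each region has a signal, which the authors computed and whose scale is not stated, and a summit. The thresholded list is labelled as IDR thresholded. Its cutoff, the aligner and the peak caller are not given in the sources used here. The lists give no read counts. Depth is therefore unknown, and shares carry exact (Clopper-Pearson) 95% intervals that cover counting error only. The ce10 lists were not used here.

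Every transcript start of a protein-coding gene in Ensembl release 115 counted as a TSS, and coding exon came before 5' UTR before 3' UTR where transcripts differ. Sequence came from the ce11 reference. Shares were compared by Fisher's exact test (two-sided), with the 7 p-values adjusted by the Benjamini-Hochberg method at 0.05, and the code was checked on simulated data. Python 3.11.15, scipy 1.17.1, numpy 2.4.6, pandas 2.3.3 and matplotlib 3.10.9 were used. Alternatives were other TSS windows, site windows, class orders, overlaps and thresholds, intronic regions as the comparison, 1 region per overlapping run, and each replicate left out. Regions were named if thresholded, among the 10 of highest signal of a class, among the 3 highest of a gene list, or nearest a threshold. Hosts of several regions were named after their counts were seen. The regions, the 21 gene lists and the tests were chosen with earlier results of these data known.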

Additional observations from a re-analysis of the deposited data

How the results depend on the processing

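The number of exonic regions was 582 with a TSS window of 1000 bp upstream to 500 bp downstream, 845 with the outermost gene start as the only TSS, and 2440 to 2926 in the list of a single replicate. With the wider TSS window the thresholded share had an odds ratio of 0.540, and with the first 100 regions as the threshold 0.168, neither of which passed. Against introns alone it was 0.978, and the GATA share turned to 1.16. Only 1 exonic region, in a coding exon, is among the first 100 regions, so comparisons inside the exonic regions rest on it there. The 3' UTR to coding exon comparison of the thresholded share was then 0.519. The GATA share of the thresholded against the other exonic regions was 7.396 and did not pass (Fisher's exact test, adjusted exact p = 0.506). Both odds ratios have 0.5 added to the cells because a count was 0. With 1 replicate left out, the GATA share against the other regions ran from 0.843 to 0.847 and passed, that of 3' UTR against coding exon regions from 1.11 to 1.36 and turned, passing without replicate 1 alone, and that of thresholded exonic against other thresholded regions from 0.306 to 1.29. For the thresholded share the same range was 0.316 to 0.448, for its 3' UTR to coding exon comparison 2.94 to 3.23, and for the GATA share of thresholded against other exonic regions 4.62 to 33.5. With 1 replicate left out, the first 328 regions of the other replicate's own list stood in for the thresholded list. The cause of these shifts was not tested. The lower share overlapped in both replicates passed in all 5 alternatives run for it, with odds ratios of 0.691 to 0.789. No paired analysis was possible because the samples form a single group. Without read counts or the control, differences between weak regions are not resolved.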

Other observations

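A run of 50 pooled regions on chromosome V, from 10054975 to 10091785, held 13 of the exonic regions in 7 genes. They included 4 in npr-39, 3 in F57A8.7, 2 in R04B5.5 and 1 each in nhr-12, nhr-192, nhr-205 and R04B5.6. Their signal ran from 13.9 to 30.2 with a median of 21.4, against 15.6 over all exonic regions, and 10 of the 13 were overlapped in both replicates. None was thresholded and 4 held a GATA site, while 4 of the 40 exonic regions up to rank 1000 came from this run. The strongest, in F57A8.7, had a GC content of 49.5% around its summit and ranked 268 in replicate 1 and 8525 in replicate 2.

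Of the summits in exons but inside a TSS window, which the rule leaves out, 13 of 355 were thresholded (3.66%) and 139 held a GATA site (39.2%), with a median signal of 16.8. The exonic regions described above had 1.41%, 28.9% and 15.6. Exonic regions made up 6.70% of the autosomal regions on chromosome IV and 9.58% of those on chromosome V.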
